A study of Homo sapiens with 18 samples.

Results

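The sites described here are the intronic m6A switches of HEK293T cells, a human embryonic kidney line. They are the entries marked intron in a deposited list that the submitters named HCS. Each entry names a U-tract, a run of 5 or more uridines, and a nearby RRACH motif. In that motif, where R is A or G and H is A, C or U, the central adenosine can carry N6-methyladenosine (m6A). The 2322 intronic entries were collapsed to 2281 distinct U-tracts, out of 2748 HCS sites and of 15024 U-tracts in either of the deposited lists. The other 467 HCS sites are exonic, and 0 U-tracts were listed as both.

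The study has 18 samples in 9 groups of 2, all from HEK293T cells. PAR-CLIP of hnRNP C, which maps protein contacts on RNA after crosslinking, was done in METTL3 knockdown, METTL14 knockdown and wild-type control cells. PARCLIP-MeRIP added an m6A enrichment to the crosslinked RNA of wild-type cells, with an IP and an Input group. RNA-seq covered HNRNPC, METTL3 and METTL14 knockdown and wild-type control cells. The labels name only the knocked-down gene, not the method, and nothing ties replicates to separate cultures. A second deposited list, called the switch list below, holds 13378 sites found by PARCLIP-MeRIP. Neither list has a value per sample, so read depth is unknown and no site could be tested between groups. Intervals below are exact binomial 95% intervals for shares and for medians. They cover counting error only and treat sites of a gene as independent, which they are not.

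hnRNP C is an abundant nuclear protein that packages nascent transcripts and binds runs of uridines. The m6A mark is written by a complex of METTL3 and METTL14. An m6A switch is a place where the mark alters RNA folding, so that a nearby U-tract becomes more or less open to a protein. Introns are removed from most transcripts soon after they are made, and hnRNP C is known to keep U-rich intronic sequence, such as that of antisense Alu repeats, from being used as exons.

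Examples of how tract and motif are arranged at intronic sites are drawn below from the listed lengths, gaps and sides, 5′ to 3′. Capitals mark the listed uridines and the invariant A and C of the RRACH motif, and n marks a base that the lists do not give. All positions are hg19. The first line shows the motif overlapping a U-tract by 1 base in HNRNPC, which encodes hnRNP C itself, with a second tract beyond it (minus strand, chr14:21718906-21718926). The next shows motif and tract side by side in PTBP2, which encodes a repressor of splicing related to PTB (plus strand, chr1:97216114-97216119). METTL14 has a short gap after an upstream motif (plus strand, chr4:119630490-119630494). In PITPNB, a phosphatidylinositol transfer protein, 1 motif lies between a pair of tracts (minus strand, chr22:28269288-28269321). In SFMBT2, a Polycomb-group gene, a pair of tracts precedes 1 motif (minus strand, chr10:7339094-7339107). In the histone chaperone gene NAP1L4, 3 tracts lie between a pair of motifs (minus strand, chr11:2996233-2996251). In TLE4, a transcriptional corepressor gene, each of a pair of tracts touches its own motif (plus strand, chr9:82189171-82189203). NUP85, a nuclear pore subunit gene, has the longest intronic tract (plus strand, chr17:73208564-73208590).
HNRNPC: nnACUUUUUnnnnnnnnnnnUUUUU
PTBP2: UUUUUUnnACn
METTL14: nnACnnnnnnnnnnUUUUU
PITPNB: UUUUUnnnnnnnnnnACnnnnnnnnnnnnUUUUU
SFMBT2: UUUUUnnnnUUUUUnnnnnnnnnACn
NAP1L4: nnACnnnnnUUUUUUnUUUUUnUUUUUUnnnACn
TLE4: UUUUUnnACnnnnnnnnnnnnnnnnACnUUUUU
NUP85: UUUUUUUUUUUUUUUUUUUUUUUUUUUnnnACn

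Most intronic sites lay far from the start of the unspliced transcript, as did exonic HCS sites and the other switch sites. Depth is the distance in nt from the start of the listed transcript, introns included, to the first uridine. Its median was 22678 nt for intronic sites (interval 21330 to 24756, n = 2281), against 26755 nt for exonic HCS sites (interval 23006 to 31593, n = 467). The middle 50% of intronic sites fell between 9021 and 51340 nt, and the whole range was 150 to 1144181 nt. Intronic and exonic sites both spanned several orders of magnitude, and their ranges overlapped. The first 10000 nt of the transcript held 27.3% of intronic sites (interval 25.5% to 29.2%) and 21.6% of exonic sites (interval 18.0% to 25.6%). Very early sites were few, with 42 intronic sites (1.84%) and 16 exonic sites (3.43%) under 1000 nt. At the other end, 221 intronic sites (9.69%) and 43 exonic sites (9.21%) lay beyond 100000 nt. Beyond 500000 nt there were 8 intronic and 0 exonic sites. The lists give no transcript length, so a deep site and a long gene cannot be told apart.

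**Figure D1:**
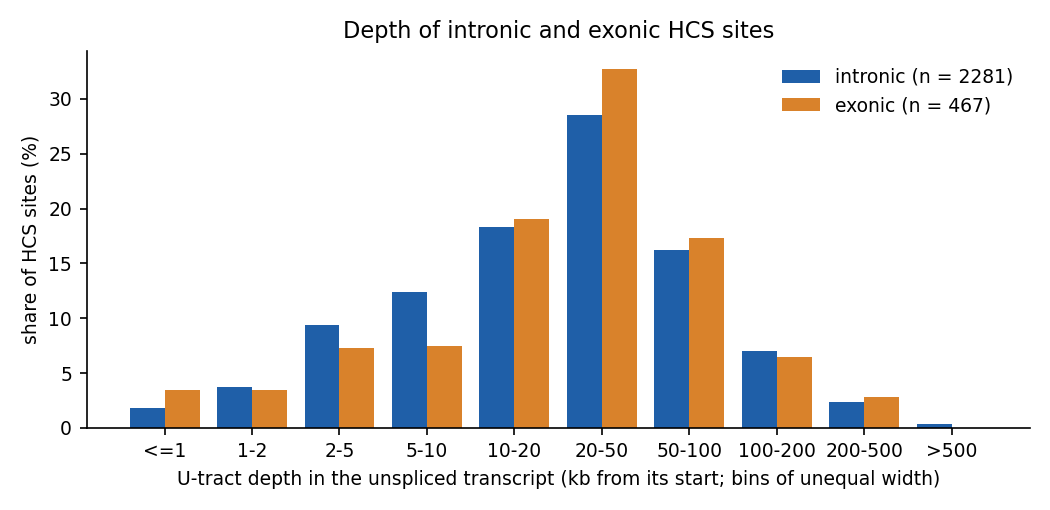
Share of HCS sites (%) by depth of the U-tract in the unspliced transcript (kb, bins of unequal width), for 2281 intronic sites (blue) and 467 exonic sites (orange). Both distributions are highest at 20 to 50 kb, with 28.5% of intronic and 32.8% of exonic sites, and intronic sites take the larger share between 2 and 10 kb.

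The 5 deepest intronic sites lay in 2 genes. ROBO1, a receptor for the SLIT guidance factors, held 3 of them, at depths of 896842, 956609 and 1101338 nt on the minus strand of chromosome 3, and the first 2 of these were in the switch list. ROBO1 held 2 more intronic sites, at 764069 and 870730 nt, so all 5 of its sites lay beyond 500000 nt. The other deepest sites were in NBPF20, at 1067234 and 1144181 nt. NBPF20 belongs to a family of near-identical copies on chromosome 1. How reads from such copies were placed is not given, so the copy that a site belongs to, and with it the depth, is uncertain.

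The 5 shallowest intronic sites lay in 5 genes, and 1 of them was in the switch list. That site was in COQ10B, a gene for a coenzyme Q-binding protein, at 288 nt, with a tract of 8 uridines on the plus strand of chromosome 2 (hg19 198318517 to 198318524). The sites outside the switch list were in DDX19A, an RNA helicase gene of mRNA export, at 303 nt, in the ribosomal protein gene RPL4 at 354 nt, and in POLR2D, an RNA polymerase II subunit gene, at 402 nt. The site at 150 nt was listed under the noncoding entry LOC100506136, whose transcript RefSeq now assigns to the gene listed elsewhere as SHFM1. Depth from that transcript's start is not depth in SHFM1, where another intronic site lay at 14994 nt.

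Of the intronic sites, 831 were also in the switch list (36.4%, interval 34.5% to 38.4%), against 271 exonic sites (58.0%, interval 53.4% to 62.5%). For intronic sites the share varied with depth. It was 45.2% between 1000 and 2000 nt (n = 84), 44.4% between 2000 and 5000 nt (n = 214) and 41.3% between 5000 and 10000 nt (n = 283). Farther in, it was 34.1% between 10000 and 20000 nt (n = 417), 38.3% between 20000 and 50000 nt (n = 650) and 29.2% between 50000 and 100000 nt (n = 370). The order was not strict, and the 42 sites under 1000 nt were at 35.7% with an interval of 21.6% to 52.0%. Exonic sites had their higher shares beyond 10000 nt, for example 61.8% between 10000 and 20000 nt (n = 89) and 64.2% between 50000 and 100000 nt (n = 81). Below 1000 nt the exonic share was 43.8% (n = 16), with an interval of 19.8% to 70.1% that holds both of those shares. The intervals of intronic and exonic sites overlapped in every bin below 10000 nt and did not overlap in the 4 bins between 10000 and 200000 nt. The median depth was 20826 nt for intronic sites in the switch list (interval 18322 to 23085), against 24361 nt for those outside it (interval 22191 to 26440). In exonic sites it was 30453 nt in the switch list (interval 24762 to 35671), against 23607.5 nt outside (interval 17632 to 29549). The intervals in and outside the switch list overlapped in both regions. Whether the regions differ here by more than the spread between samples was not tested, since the lists hold no samples.

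**Figure D2:**
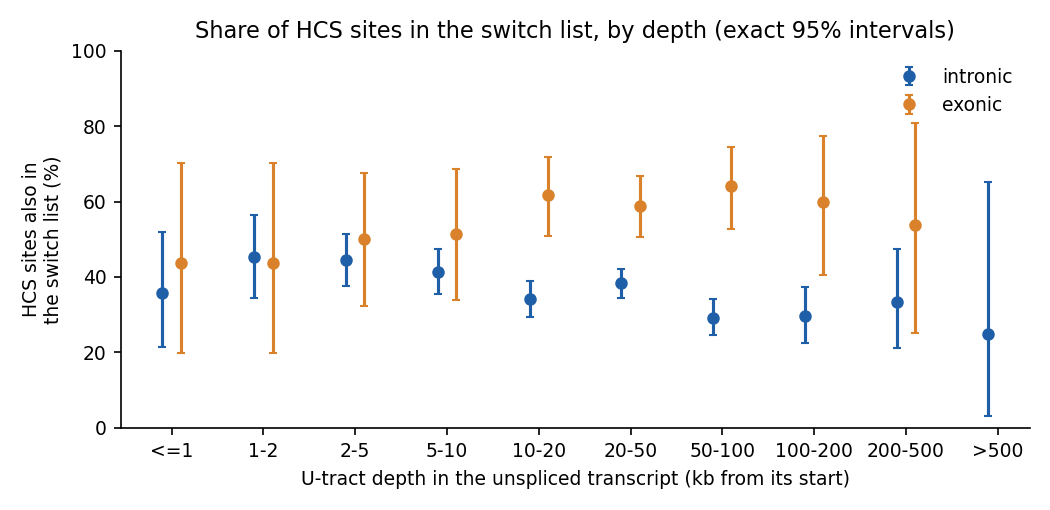
Share of HCS sites found in the switch list as well (%) by depth of the U-tract in the unspliced transcript (kb), for intronic (blue) and exonic (orange) sites. Points are shares and bars exact binomial 95% intervals. Intronic shares lie between 29.2% and 45.2% up to 500000 nt, and exonic shares lie above them in every bin from 2000 to 500000 nt.

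A site outside the switch list was outside it with its motif too. Of the 1450 intronic sites not in the switch list, 6 (0.414%, interval 0.152% to 0.898%) had their RRACH motif paired there with another U-tract. Among them were sites in TCTN2, C14orf118, U2SURP, USP9X and MTMR1. Of the 1450 sites, 1219 were in a gene that the switch list names (84.1%, interval 82.1% to 85.9%). Over all 2281 intronic sites it was 2050 (89.9%), which includes the 831 sites in the switch list by construction. Among the 196 exonic sites outside the switch list, 131 (66.8%, interval 59.8% to 73.4%) were in such a gene. Over all 467 exonic sites it was 402 (86.1%).

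The U-tracts of intronic sites were short. They had exactly 5 uridines in 66.7% of intronic sites (interval 64.7% to 68.7%), against 66.4% of exonic sites, and 6 uridines in 17.6% and 18.8%. Tracts of 8 or more made up 8.72% of intronic sites (199) and 9.42% of exonic sites (44). The 27 intronic tracts of 15 or more are 1.18% of the sites, and 3 exonic tracts (0.642%) were as long. NUP85 held the longest, 27 uridines, and the site was in the switch list. The next were in ANKRD13C with 23 uridines, outside the switch list, and in the nuclear import receptor gene KPNA1 with 21, in the switch list. Tracts of 20 were found in CHEK1, a DNA-damage checkpoint kinase gene, in PPFIA1, a synaptic scaffold gene, in the histone methyltransferase gene SETD2 and in ZMYM4. Of these 4, those of SETD2 and ZMYM4 were in the switch list. The longest exonic tract had 19 uridines. Of intronic tracts of 8 to 14 uridines, 47.1% were in the switch list (interval 39.5% to 54.8%, n = 172). For 5 uridines it was 35.0% (interval 32.6% to 37.5%, n = 1522), and for 6 and 7 it was 36.6% and 36.7%. The 27 tracts of 15 or more were at 44.4%, with an interval of 25.5% to 64.7%.

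The RRACH motif of an intronic site lay close to its tract. The edge-to-edge gap, in which 0 means side by side and -1 an overlap by 1 base, had a median of 11 nt in intronic sites (interval 10 to 11), against 12 nt in exonic HCS sites (interval 10 to 15) and 17 nt in the 12276 switch sites outside the HCS list (interval 17 to 18). Gaps of at most 10 nt were found in 49.2% of intronic sites (interval 47.2% to 51.3%), against 45.4% of exonic sites and 33.4% of the other switch sites (interval 32.5% to 34.2%). Tract and motif were side by side in 139 intronic sites (6.09%, interval 5.15% to 7.16%), as drawn for PTBP2, against 3.13% of the other switch sites. They overlapped in 86 intronic sites (3.77%), as drawn for HNRNPC, against 2.21% of the other switch sites. Every overlap was with an upstream motif, whose last base is then the first uridine of the tract. The motif lay downstream in 56.7% of intronic sites (interval 54.7% to 58.8%), against 52.2% of exonic sites (interval 47.6% to 56.9%) and 60.003% of the other switch sites (interval 59.1% to 60.9%). The switch list has high bars at downstream gaps of 40 and 48 nt, which were chosen after their values were seen. These gaps made up 1.36% of intronic sites, 1.50% of exonic sites and 5.002% of the other switch sites. Intronic sites with gaps of 1 to 5 nt were in the switch list least often of the gap classes, at 29.3% (interval 25.4% to 33.5%, n = 508). Those with gaps of 41 to 50 nt were in it most often, at 44.2% (interval 35.8% to 52.9%, n = 138). The share did not rise steadily with the gap. It was 39.6% for gaps of -1 to 0 nt (n = 225), and 37.9%, 39.2%, 36.0% and 36.3% in the successive classes from 6 to 40 nt.

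**Figure D3:**
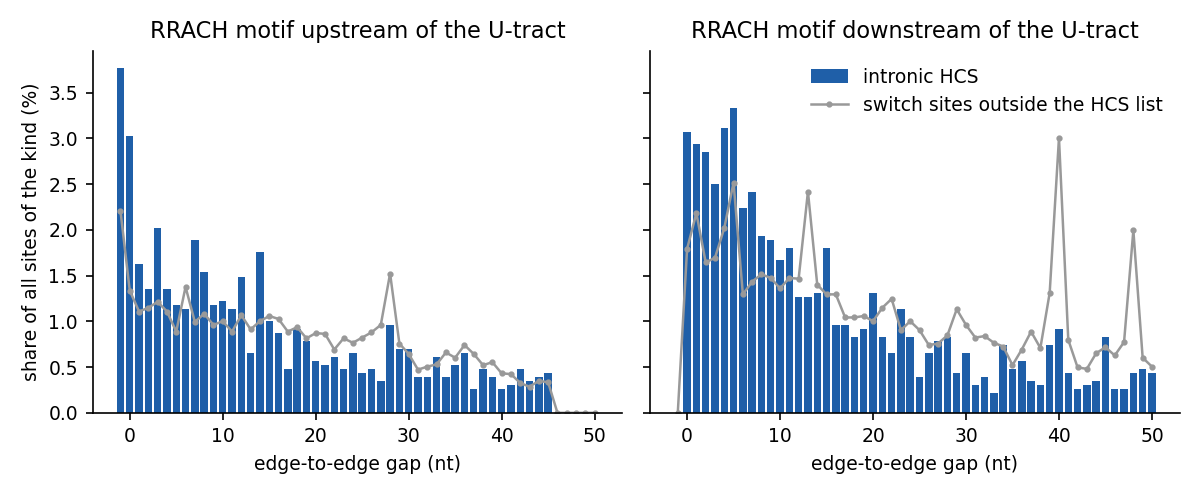
Share of sites (%) at each edge-to-edge gap (nt) between U-tract and RRACH motif, for motifs upstream (left panel) and downstream (right panel), with intronic HCS sites as bars and switch sites outside the HCS list as a grey line. Gaps of at most 10 nt hold 49.2% of intronic sites and 33.4% of the others, and the grey peaks at downstream gaps of 40 and 48 nt have no counterpart of that height among intronic sites.

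The 2281 sites fell in 1537 genes, with a site listed under several genes counted in each of them. Of these genes, 1066 held 1 intronic site, 286 held 2, 110 held 3 and 75 held 4 or more. The 471 genes with several sites were 30.6% of the genes (interval 28.3% to 33.0%) and held 54.1% of the gene-site pairs. Exonic HCS sites, which are fewer in all, were several in 47 of 417 genes (11.3%, interval 8.40% to 14.7%) and at most 5 in a gene. How far the smaller total sets that share was not tested. An exonic HCS site was held by 139 of the 1537 genes (9.04%), close to the 417 of 4469 over all genes with any site (9.33%). A site in the switch list was found in 1318 of the 1537 genes (85.8%, interval 83.9% to 87.5%). That count includes a gene's own intronic sites where they are in the switch list, as in 369 of the 1066 genes with 1 site. The same share over all genes with any site was not computed. It is high by construction, since 13378 of the 15024 U-tracts in either list are in the switch list. The 85.8% is therefore no measure of agreement between the lists. Of the 219 genes with no site in the switch list, MAGI1, a gene for a junctional scaffold protein, held the most intronic sites, with 3.

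Genes with more intronic sites held them over a longer stretch. The deepest site had a median depth of 18466 nt in genes with 1 site, 35725 nt with 2, 50596.5 nt with 3 and 79517 nt with 4 or more. The shallowest site was at 18466, 15396.5, 11060.5 and 7321 nt in the same order. More sites in a gene spread its first and last site by counting alone, and longer genes have room for more, so these medians describe the genes and were not tested. From the first to the last site, genes with several sites spanned a median of 20388 nt (interval 17051 to 24130). The share of sites in the switch list was 34.6%, 33.4%, 39.7% and 42.5% in genes with 1, 2, 3 and 4 or more sites, with overlapping intervals for neighbouring classes. Within the 471 genes with several sites, some but not all were in the switch list in 247 (52.4%), none in 167 (35.5%) and all in 57 (12.1%).

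SFMBT2, on the minus strand of chromosome 10, held the most intronic sites, 8. Its sites at 45837, 50006 and 78892 nt were in the switch list, and those at 114341, 114350, 174841, 218511 and 231877 nt were not. All 8 have a downstream motif. The 3 sites in the switch list are therefore the shallowest 3 of the gene.

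PTBP2 and the HECT-type ubiquitin ligase gene UBE3C held 7 each. In PTBP2, on the plus strand of chromosome 1, the sites at 2806 and 28941 nt were in the switch list, and those at 18916, 19577, 63758, 64930 and 73454 nt were not. In UBE3C, on the plus strand of chromosome 7, only the site at 104684 nt was in it, and those at 23746, 23757, 54198, 66352, 75111 and 116364 nt were not. The UBE3C sites at 23746 and 23757 nt share a motif. In PTBP2 the sites at 18916 and 19577 nt, outside the list, lie between the 2 in it, unlike in SFMBT2. UBE3C has 1 site in the list, so no such order can be read there.

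Of the 12 genes with 6 intronic sites, PPP4R2, which encodes a regulatory subunit of protein phosphatase 4, had all 6 in the switch list. Their depths on the plus strand of chromosome 3 were 1055, 3622, 7801, 11385, 18041 and 48346 nt. KANSL1, a scaffold gene of a histone acetyltransferase complex, and PPP6R3, for a regulatory subunit of protein phosphatase 6, had 4 of 6 in it. ANKRD11, a chromatin regulator gene, had 3 of 6, as did NAP1L4, PITPNB and PCBP2, which encodes a poly(C)-binding protein. In PCBP2 the sites at 20878, 20884 and 22552 nt were in the switch list and the shallower ones at 883, 3972 and 8453 nt were not, the opposite order to SFMBT2. Those at 20878 and 20884 nt share a motif. In ANKRD11 the sites at 70546, 102008 and 213480 nt were in it, and those at 5747, 30890 and 150521 nt were not. SETD2 also had 3 of 6, at 39008, 61186 and 130703 nt, its deepest 3. The RNA-binding protein gene LARP4B had 2 of 6, at 3968 and 73351 nt. ANKRD17, ATXN2 and POLA1 had 1 of 6 each, at 103467, 18396 and 34208 nt. No single order by depth held across these genes.

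**Figure D4:**
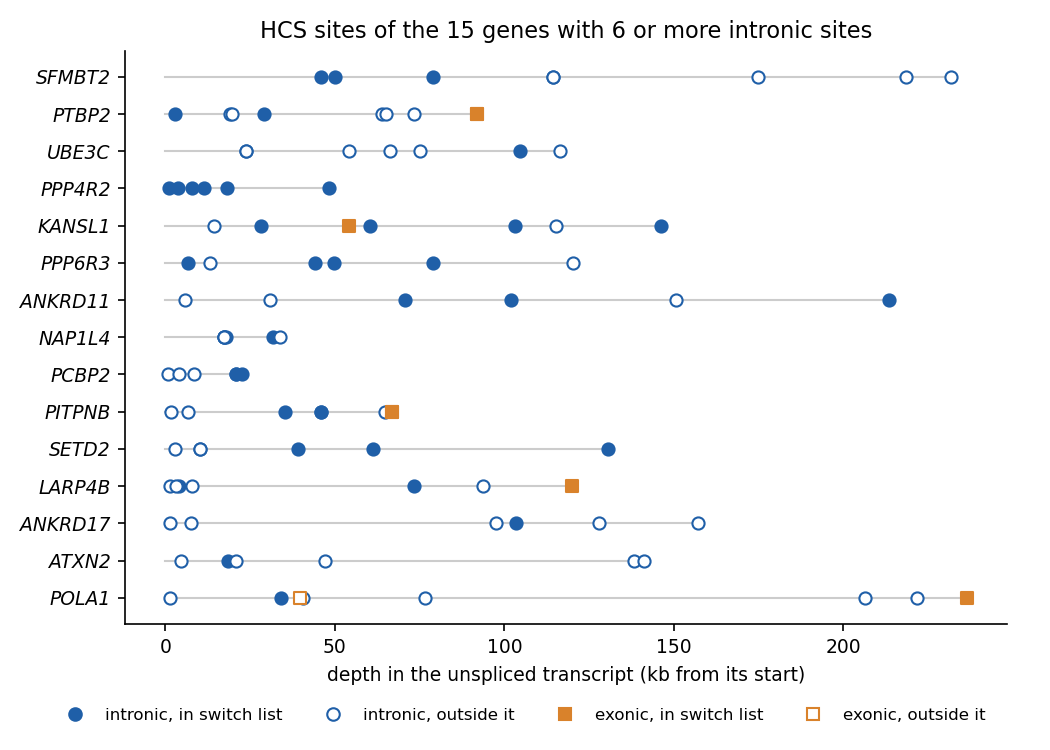
Depth in the unspliced transcript (kb from its start) of every HCS site of the 15 genes with 6 or more intronic sites, in order of their number and then of the number in the switch list. Circles are intronic and squares exonic sites, filled where the site is also in the switch list. PPP4R2 has 6 filled circles of 6, and the 3 filled circles of SFMBT2 are its shallowest 3.

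Beyond PPP4R2, 5 genes had all of 4 intronic sites in the switch list. They are ATAD3B, a mitochondrial ATPase gene, DIDO1, PAFAH1B1, which regulates the dynein motor, the amino acid transporter gene SLC7A1, and the read-through gene RBM14-RBM4. RBM14-RBM4 shares 3 of its 4 sites with RBM14 or RBM4, and in all 40 intronic sites are listed under several genes. Genes with 4 or more intronic sites and none in the switch list numbered 7. Among them were NAA15, an N-terminal acetyltransferase subunit gene, with 0 of 5, the noncoding LOC647946, also with 0 of 5, and BRWD1, CUX1 and ZNF644 with 0 of 4 each. NAA15 still held 16 switch sites elsewhere, and CUX1 held 16 too.

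Few consecutive intronic sites of a gene shared a motif, 56 of 776 pairs (7.22%), and all of these lay within 100 nt. The listed distance is at most 50 nt, so tracts of 1 motif lie close together by construction. Consecutive sites were a median of 12588 nt apart (interval 10802 to 14078, 776 pairs), with a range of 6 to 618739 nt. More than 10000 nt separated 435 pairs (56.1%). At the other end, 65 pairs (8.38%) lay within 100 nt, and 56 of these (86.2%) were U-tracts of 1 motif, as drawn for PITPNB and SFMBT2. A neighbour within 1000 nt in the same gene was found for 9.34% of intronic sites, against 17.6% of exonic sites.

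Tracts that share a motif were mostly alike in the switch list. The share of alike pairs expected of unrelated sites was not computed. Within 100 nt both members were in the switch list in 28 pairs, neither in 32 and 1 member in 5. So 92.3% of these 65 pairs were alike (interval 83.0% to 97.5%), and 56 of the 65 share a motif. Between 100 and 1000 nt 47.8% of 46 pairs were alike (interval 32.9% to 63.1%), between 1000 and 10000 nt 55.2% of 230, between 10000 and 100000 nt 55.0% of 400, and beyond 100000 nt 45.7% of 35. Of the 56 pairs that share a motif 1 was mixed, and 98.2% were alike (interval 90.4% to 99.95%). Of the 9 pairs with different motifs 4 were mixed, and 55.6% were alike (interval 21.2% to 86.3%).

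**Figure D5:**
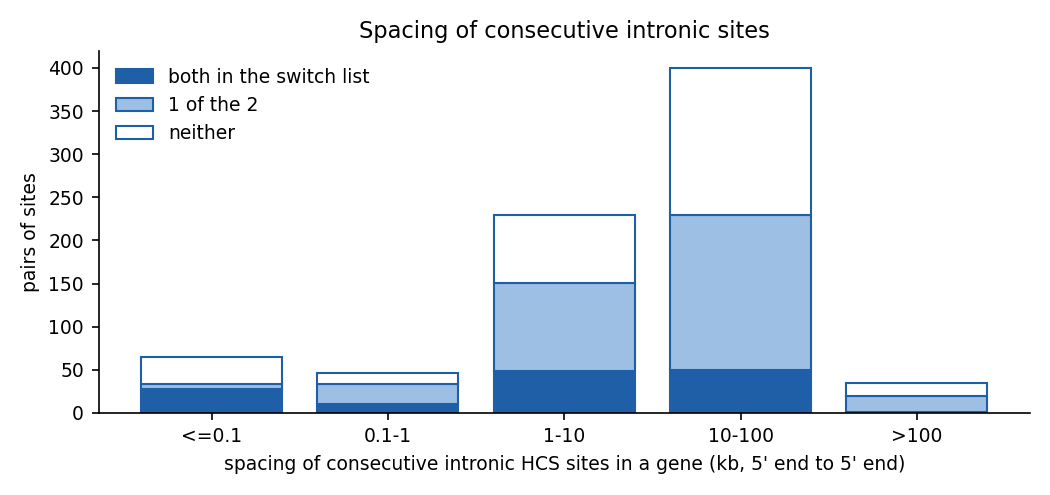
Number of pairs of consecutive intronic HCS sites in a gene by their spacing (kb, between the first uridines), split by whether both, 1 or neither member is in the switch list. The 65 pairs within 0.1 kb, of which 56 share a motif, are almost all alike, with 5 mixed pairs. Mixed pairs are 180 of 400 at 10 to 100 kb.

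The closest pairs of intronic sites with different motifs were in NAP1L4, PRKDC, TLE4, SEC24A and SELENOF. In NAP1L4, where 3 tracts are 1 base apart from each other, the first tract pairs with the upstream motif and was in the switch list. The middle and last tract pair with the downstream motif and were not. In TLE4 the sites at 2295 and 2323 nt had gaps of 0 nt each, and the first was in the switch list while the second was not. In SELENOF, a selenoprotein gene, the site at 15996 nt was in it and that at 16042 nt was not. Both sites of PRKDC, a DNA repair kinase gene, at 27173 and 27199 nt, were in it, and neither of SEC24A, a vesicle coat gene, at 40206 and 40250 nt, was. No intronic site lay within 100 nt of an exonic HCS site of its gene. The nearest was in NAP1L1, another histone chaperone gene, at 700 nt, followed by LUC7L2, a splicing factor gene, at 739 nt and POLA1, the DNA polymerase alpha catalytic subunit gene, at 847 nt.

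HNRNPC held 4 intronic sites, on the minus strand of chromosome 14. Those at 6103 and 16687 nt, with gaps of 29 and 39 nt to an upstream motif, were in the switch list, and those at 18712 and 18728 nt, which share the motif drawn above, were not. METTL14 held 1, at 23918 nt, in the switch list, and METTL3 held 0. Of 16 genes for m6A writers, erasers and readers with a site in either list, 8 (50.0%) held an intronic site. Over all genes it was 1537 of 4469 with any site (34.4%), which is the value to set beside each gene group below. Their 13 intronic sites included 4 in the switch list. YTHDF2, a cytoplasmic m6A reader gene, held 3, at 1554, 4004 and 13673 nt, all outside it. ZC3H13, a writer-complex gene, held 3, of which the one at 4716 nt was in it and those at 22678 and 64091 nt were not.

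The genes of RNA processing were set beside the 36.4% of all intronic sites that were in the switch list. Of 25 SR and SR-related splicing factor genes with any site, 12 held intronic sites, and 17 of their 26 sites were in it (65.4%, interval 44.3% to 82.8%). SRSF4 had 3 of 3 in it, at 14145, 17078 and 20548 nt, and TRA2A and SRSF10 had 2 of 2 each. RBM39 had 3 of 5, and LUC7L2 had 2 of 5. Among 27 hnRNP and polypyrimidine-tract protein genes 13 held intronic sites, 15 of 33 in the switch list (45.5%, interval 28.1% to 63.6%), with HNRNPM at 2 of 4. Of 24 core spliceosome genes 5 held them, with 4 of 6 sites in it (66.7%, interval 22.3% to 95.7%). The intervals of these last groups include 36.4%.

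Of 11 genes of 3′ end processing with any site 7 held intronic sites, and 1 of their 18 sites was in the switch list (5.56%, interval 0.141% to 27.3%). That site was in PAPOLG, a poly(A) polymerase gene, at 29674 nt. PAPOLA, another poly(A) polymerase gene, had 0 of 4, at 4049, 18009, 18015 and 26933 nt, while its exonic site at 25108 nt was in the list. The PAPOLA sites at 18009 and 18015 nt share a motif. WDR33, whose product binds the polyadenylation signal, had 0 of 4, at 11893, 12471, 26092 and 55671 nt, although the gene held 24 switch sites. CSTF3, a cleavage factor gene, had 0 of 3.

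Of 42 cytosolic ribosomal protein genes with any site 9 held intronic sites (21.4%, against 34.4% over all genes). The sites had a median depth of 3943 nt, and 10 of 12 were in the switch list (83.3%, interval 51.6% to 97.9%). RPS3 had sites at 19518 and 19526 nt in the switch list, which share an overlapping motif, and 1 at 20732 nt outside it. RPS24 had both of its sites in it, at 9257 and 9689 nt. RPL26 and RPL32 had 1 each in it, at 692 and 2938 nt.

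Median depths differed among the remaining groups, against 22678 nt over all intronic sites. Chromatin modifier and remodeller genes held 83 intronic sites in 31 of 55 genes, at a median depth of 51736 nt, with 33 in the switch list. SETD2 had 3 of 6 in it and SMARCC1, a SWI/SNF subunit gene, 1 of 5. Ubiquitin ligase and deubiquitinase genes held 64 in 33 of 65 genes, at a median of 56564 nt, with 17 in it (26.6%, interval 16.3% to 39.1%). BIRC6 and USP10 had 1 of 4 each. DNA replication and repair genes held 41 in 26 of 55 genes, at a median of 36480 nt, with 12 in it, among them POLA1 with 1 of 6, PRKDC with 3 of 4, RFC3 with 1 of 3 and POLQ with 0 of 3. Mitosis, cohesin and cell cycle genes held 51 in 33 of 58 genes, at a median of 26044 nt, with 23 in it. There the anaphase-promoting complex gene ANAPC10 had 3 of 3, and the cohesin gene STAG1 had 1 of 4, including a site at 339574 nt outside it.

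Long noncoding RNA genes add a small set. Among 15 nuclear and snoRNA-host long noncoding RNA genes with any site, 6 held 9 intronic sites, 6 of them in the switch list. JPX, whose RNA takes part in X inactivation, had 2 of 2, at 21086 and 33789 nt. FTX had 1 of 2, at 36693 nt in it and 78956 nt outside, and DLEU2 had 1 of 2. Over the whole HCS list 91 intronic sites (3.99%) had at least 1 listed transcript that is noncoding. Of these, 30.8% were in the switch list (interval 21.5% to 41.3%). It was 36.7% for the 2190 sites listed under protein-coding transcripts alone (interval 34.6% to 38.7%). The intervals of the gene groups are wide, sites of 1 gene count several times, and the groups were chosen with results of these data known, so their shares are a description.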

How the data were processed

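Titles of the 18 samples gave the 9 groups of 2. The tools named in the submitters' processing notes are Bowtie 1.0.0, Trimmomatic, DESeq, Cuffdiff, Cufflinks and TopHat 1.1.4, and the build is hg19. Not given in the sources used here are the calling of sites, its thresholds, any pooling of replicates and any treatment of reads from repeats. Per the file headers, the deposited lists give positions, U-tract lengths and distances in nt, with no value per sample, so the authors' counts and enrichments were not analysed here.

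HCS entries marked intron were collapsed by chromosome, strand, start and end. Depth is the smallest listed start in the unspliced transcript where a site has several. For an upstream motif the listed distance includes the motif, and the gap leaves it out. A site was in the switch list where all 4 coordinates matched, and 3 copies on the Y chromosome were left out there. Dates in place of symbols (8 intronic entries) and missing symbols (4) were resolved by transcript in a RefSeq table of GRCh38.p14, used for names only. No hg19 sequence was at hand, so distances to splice sites and site sequences were not analysed here.

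Named genes were the 10 with the most intronic sites (ties at 6 sites broken by the number in the switch list, with the 5 other genes at 6 added later), those of the 5 deepest, 5 shallowest and 5 longest sites and of the 5 closest pairs with different motifs, HNRNPC, METTL3 and METTL14, and up to 4 per gene list. Genes with all or none of 4 or more sites in the switch list, and genes of the sites whose motif alone is in it, were named after their values were seen, as were MAGI1, NAP1L1 and ZMYM4. Some genes that the rule takes are left out here. The members and lists were chosen with earlier results of these data known. The steps were tested on simulated sites. Alternatives were the counting unit, 1 tract per motif, merging of close sites, single-gene sites, protein-coding transcripts, the transcript used for depth, the distance measure and the neighbour limit. The software was scipy 1.17.1, pandas 2.3.3 and numpy 2.4.6 under Python 3.11.15, with matplotlib 3.10.9 for plots.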

Additional observations from a re-analysis of the deposited data

How the results depend on the processing

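Over the other ways of counting listed above, the share of intronic sites in the switch list was 36.2% to 36.7%, the median depth 22637 to 23153 nt, the share with a downstream motif 56.5% to 56.9%, the share of genes with several sites 28.7% to 30.9% and the share of 5 nt tracts 66.7% to 67.0%. The median gap was 11 nt in all but 1 of them, since the listed distance, which includes an upstream motif, gave 13 nt. The share with a neighbour within 1000 nt, 9.34%, was 4.76% with 1 U-tract per motif and 3.97% after merging sites within 100 nt, both of which remove close sites by construction. It was 6.18% with a limit of 200 nt and 19.4% with a limit of 5000 nt. No paired analysis was possible because the lists hold no value per sample, and for the same reason no replicate could be left out. Read depth behind a site is unknown, so absence from the switch list does not show that a site is unmethylated or unbound.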
